A study of Mus musculus with 27 samples.

Results

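CD11b+ cells from the hippocampus of stressed mice given minocycline were compared with CD11b+ cells from the hippocampus of naive mice, to see which genes stayed away from the naive level under the drug. The comparison takes 5 of the 27 libraries of the study, 3 from the stressed and treated group and 2 from the naive group. It covers the 13592 of 53412 listed genes that had 10 or more counts in at least 2 of these 5 libraries. All mice were of the strain given as C57BJ6. The treated group (HC CUMS_M) went through chronic unpredictable mild stress (CUMS), a schedule of changing mild stressors used as a rodent model of depression, and received minocycline, for which the labels give neither dose nor duration. The naive group (HC NAIVE) had neither. Stressed mice without drug (HC CUMS, 3 libraries, with no vehicle named) are shown beside the main comparison. So are the same groups of the prefrontal cortex (PFC CUMS_M, 3 libraries, and PFC NAIVE, 2 libraries). All 15 libraries of the minocycline experiment, PFC CUMS (2 libraries) among them, entered the fit that set the scaling and the spread. The labels give no age, no sex and no batch, and do not say whether a library is 1 animal or a pool. Nothing in them states that replicates are different animals. The p-values therefore speak only to the spread within the 6 groups of the 15 fitted libraries, which may be technical.

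CD11b is the integrin chain encoded by Itgam, which microglia, border macrophages, monocytes and neutrophils carry on their surface. Microglia are the resident macrophages of the brain, and in the hippocampus they survey synapses, clear debris and respond to stress hormones, cytokines and danger signals. Minocycline is a tetracycline that enters the brain and is widely used to dampen microglial activation, and tetracyclines as a class bind the bacterial ribosome. Because stress and drug were given together, a difference between these groups can belong to either one, and the comparison by itself cannot tell them apart.

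The treated libraries were somewhat deeper. The CUMS_M libraries held 13.3 to 15.3 M counts and the NAIVE libraries 11.8 to 12.8 M. Microglial markers were abundant in all 5 libraries: Cx3cr1 ran from 8628 to 9976 CPM (counts scaled to the effective size of the library) and Tmem119 from 4676 to 5167. The T cell receptor genes Cd3e, Cd3g, Cd3d, Trac and Trbc2 had 0 to 9 counts in the 2 NAIVE libraries together and 0 to 20 in the 3 CUMS_M libraries together. The whole lymphocyte and NK cell list summed to 502 to 532 CPM in CUMS_M and 506 to 598 CPM in NAIVE. The mean over its 11 tested members was only 1.95, 2.08 and 2.27 log2 CPM in CUMS_M and 1.85 and 1.93 in NAIVE. The sum was thus not spread evenly over the list and does not stand for its members in general. Neutrophil genes summed to 977 to 3079 CPM in CUMS_M and 1465 to 2189 CPM in NAIVE. For choroid plexus and ependymal genes the sums were 1233 to 2069 CPM and 1186 to 1469 CPM. In a principal component analysis of the 8 hippocampal libraries of the experiment, CUMS_M 3 stood apart on the first component (22.5% of the variance), at 44.0 against -23.7 to 13.5 in the others. Replicates within a group differed by more than counting noise, with a chi-square of 6.26 to 25.1 per gene in the hippocampal pairs.

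No single gene passed the test for a difference from the naive level. With edgeR's quasi-likelihood test and Benjamini-Hochberg adjustment over all genes, 0 of 13592 genes passed an adjusted p under 0.05 (0% called), and the smallest adjusted p was 0.640. At an unadjusted p under 0.05 there were 331 genes (2.44%), of which 250 were higher (1.84%) and 81 lower (0.596%) in CUMS_M. DESeq2 called 1 gene, Adcyap1r1 (0.00736%), and had 388 at an unadjusted p under 0.05 (2.85%). Every CUMS_M library lay above both NAIVE libraries for 1355 genes (9.97%), and below both for 1062 genes (7.81%). The log2 fold change was above 0 for 6794 genes (50%).

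What the design could bound depends on the level of a gene. The 95% confidence interval of the log2 fold change lay inside a 2-fold change in either direction for 9264 of the 13592 genes (68.2%), and inside a 1.5-fold change for 6705 (49.3%). Among the 1968 genes at 100 CPM or more, 1927 were bounded within 2-fold. Between 1 and 10 CPM this held for 1047 of 3961 genes, and under 1 CPM for 1 of 1120. A change of 2-fold or more in a gene of the lower levels could therefore often not be excluded at this depth and with this number of libraries.

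**Figure D1:**
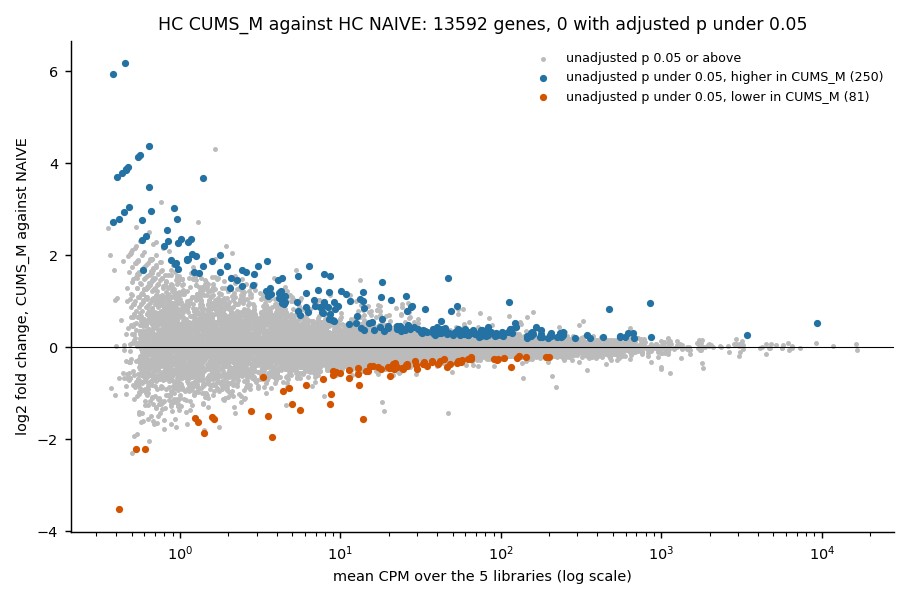
Log2 fold change of HC CUMS_M against HC NAIVE (vertical axis) against the mean CPM over the 5 libraries (horizontal axis, log scale), 1 point per gene. Blue and orange points mark the 250 higher and 81 lower genes with an unadjusted p under 0.05, and no point passed the adjusted threshold.

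Genes known from astrocytes, the glia that take up glutamate and potassium and are coupled by gap junctions, had the highest median of the 35 gene lists. Lists and members were chosen with earlier results of these data known, so this rank and the counts that follow are descriptive only. All 12 of 12 members were above 0, with a median log2 fold change of 0.89 against -9.6e-05 over all genes, 0 passed the adjusted threshold, and 7 had an unadjusted p under 0.05 in the upward direction. For 7 of the 12 every CUMS_M library was above both NAIVE libraries, against 9.97% of all genes. The median ran from 0.68 to 1.10 over the alternatives tried.

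Adcyap1r1, which encodes the PAC1 receptor for the stress-related neuropeptide PACAP, had the smallest p of all genes. It lies on chromosome 6 (55451978 to 55501451, plus strand; positions here are from GENCODE M21 on GRCm38). Its level was 13.9, 14.1 and 7.16 CPM in CUMS_M 1, 2 and 3, and 4.38 and 3.57 CPM in NAIVE 1 and 2. The groups did not overlap, and CUMS_M 3 was the nearest to the NAIVE libraries. The log2 fold change was 1.56 ± 0.31 (SE; 95% interval 0.90 to 2.22), with an edgeR adjusted p of 0.640 and a DESeq2 adjusted p of 0.0341. Adcyap1r1 is not a member of the astrocyte list.

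Within the list, Tril, a toll-like receptor accessory protein, was at 15, 11.2 and 12.8 CPM in CUMS_M against 5.16 and 6.04 CPM in NAIVE (log2 fold change 1.22 ± 0.30). Slc4a4, a sodium bicarbonate cotransporter of astrocytes, was at 26.8, 28.1 and 18 CPM against 6.80 and 11.5 CPM (1.41 ± 0.38). Gja1, the gap junction protein connexin 43, was at 31.5, 25.1 and 20.8 CPM against 11 and 14.3 CPM (1.03 ± 0.36). In these 3 genes, too, each CUMS_M library was above both NAIVE libraries. Aldh1l1, a formyltetrahydrofolate dehydrogenase that marks astrocytes, was at 11.3, 10.6 and 6.65 CPM against 5.16 and 5.02 CPM (0.90 ± 0.30), and Gjb6, connexin 30, at 6.99, 7.22 and 3.22 CPM against 2.42 and 1.62 CPM (1.52 ± 0.59), the largest fold change of the list. The smallest were those of the glutamate transporter Slc1a3 (0.14 ± 0.15) and of Gfap, the intermediate filament of reactive astrocytes, at 5.39, 9.42 and 3.87 CPM against 6.33 and 4.42 CPM (0.21 ± 0.44). For Tril, 21.4% of the exon bases are also covered by a gene on the other strand, and the strand setting of the counting is not given in the sources used here. The edgeR adjusted p of each of these list members was 1.

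Averaged over its members, the astrocyte list stood at 4.85, 4.84 and 4.16 log2 CPM in CUMS_M and at 3.68 and 3.91 in NAIVE. Its summed level was 462 to 747 CPM against 376 to 469 CPM, so the sums overlapped in CUMS_M 3. In stressed mice without drug the same average was 4.90, 4.62 and 4.74 log2 CPM. The median log2 fold change of HC CUMS against the same NAIVE libraries was 0.96, and that of HC CUMS_M against HC CUMS was -0.05. These comparisons share libraries, so their values are given side by side only. In Adcyap1r1, too, the CUMS libraries (11.8, 8.65 and 11.5 CPM) lay in the range of the CUMS_M libraries. In bulk RNA from a sort, more astrocyte material and more RNA per cell cannot be told apart, and the part of either in these values was not tested.

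Without the filter on low counts, edgeR called 8 genes in place of 0. Of these, 7 were higher in CUMS_M, and besides Adcyap1r1, Slc4a4, Gja1 and Nf1 they were Htra1, Gpr37l1 and Slc6a9. The lower gene was Brms1, under 1 CPM in all 5 libraries, with 79.0% of its exon bases shared with another gene on its strand. A fit of only the 5 libraries called 1 gene, Slc6a11, the GABA transporter GAT-3 of astrocytes, at 67.1, 68.5 and 54 CPM in CUMS_M against 18.8 and 25.9 CPM in NAIVE (edgeR adjusted p = 0.00716 in that fit and 1 in the fit of all 15 libraries). Htra1, Gpr37l1, Slc6a9, Slc6a11 and Brms1 are named here after their values were seen.

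**Figure D2:**
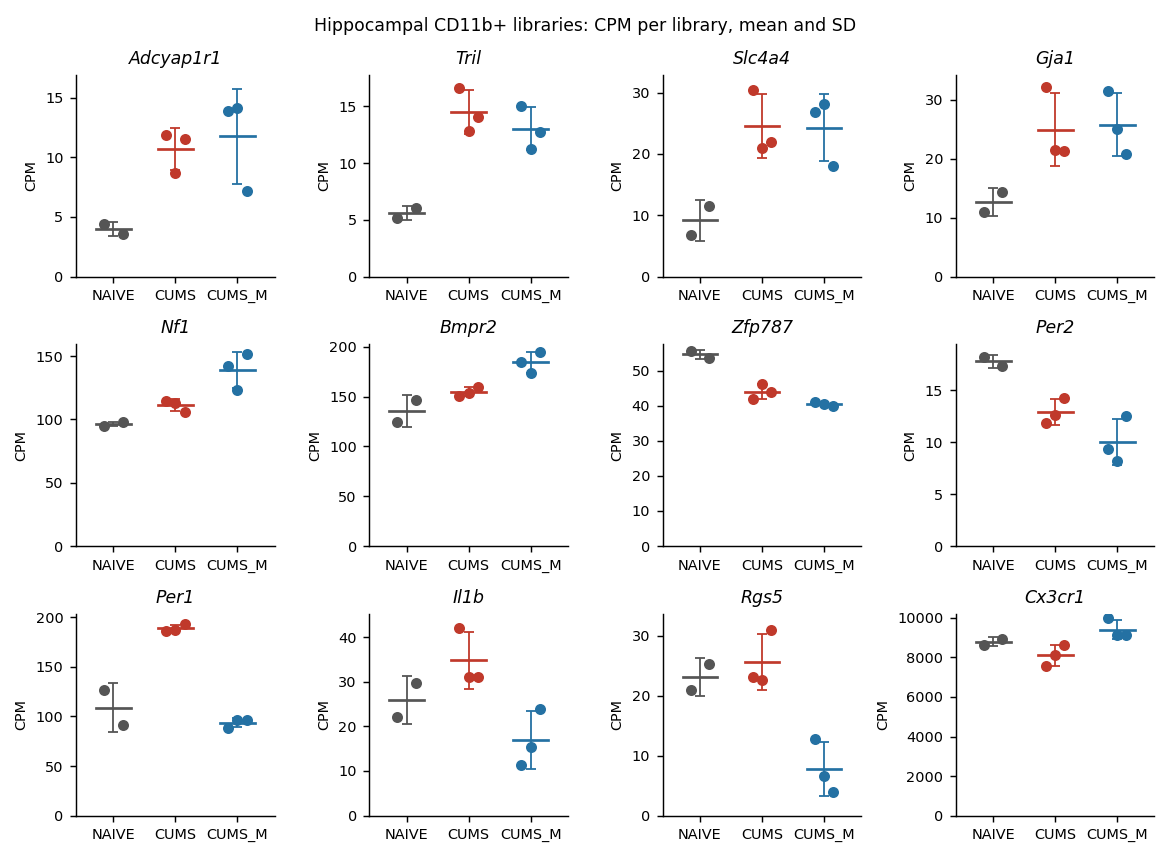
CPM of 12 genes (vertical axes, each from 0) in each hippocampal library, by group: NAIVE (grey), CUMS (red) and CUMS_M (blue), with the mean as a bar and the SD as an error bar. The astrocyte genes Tril, Slc4a4 and Gja1 and the receptor Adcyap1r1 are high in both stressed groups, Per1 is near its NAIVE level in CUMS_M, and Cx3cr1 is nearly level across groups.

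Large genes made up the other leading group above the naive level. Nf1, neurofibromin, which turns off Ras, was at 142, 123 and 152 CPM in CUMS_M and at 95.1 and 97.7 CPM in NAIVE. The groups were well separated, and the log2 fold change was 0.53 ± 0.11 (95% interval 0.30 to 0.76, edgeR adjusted p = 0.673). Nf1 lies on chromosome 11 (79339693 to 79581612, plus strand) and has 15850 exon bases. Bmpr2, a type II receptor for bone morphogenetic proteins, was at 185, 174 and 195 CPM against 124 and 147 CPM (0.45 ± 0.10, edgeR adjusted p = 0.732). It lies on chromosome 1 (59763400 to 59879014, plus strand) with 17983 exon bases. Both genes were nearer to NAIVE in the undrugged stressed libraries, Nf1 at 115, 113 and 106 CPM and Bmpr2 at 151, 154 and 160 CPM.

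Most of the other leading genes with higher values were also long, with 28486 exon bases in Hook3, 11553 in Diaph2 and 9462 in Ckap5, while Adamtsl2 (7993) and Gpld1 (5415) were nearer to the median of 4859 over coding genes at 10 CPM or more. Diaph2, a formin that nucleates actin, was at 90.1, 93.9 and 93.3 CPM against 60.4 and 75.6 CPM (0.44 ± 0.12), and Ckap5, a microtubule polymerase, at 67.7, 64.7 and 65.4 CPM against 54.1 and 45.5 CPM (0.40 ± 0.12). Hook3, a dynein adaptor, had a log2 fold change of 0.40 ± 0.12, and Adamtsl2, a secreted matrix protein that binds latent TGF-beta complexes, one of 0.83 ± 0.24. Gpld1, a phospholipase that cuts GPI anchors, was at 8.72, 8.13 and 5.41 CPM against 2.11 and 2.98 CPM (1.54 ± 0.43), but 45.5% of its exon bases lie opposite another gene. Among list members of small p, Itgav, the integrin chain that helps to activate TGF-beta, was at 281, 244 and 270 CPM against 188 and 230 CPM (0.34 ± 0.11). Abca1, the exporter that loads cholesterol onto apolipoproteins, was at 744, 677 and 726 CPM against 570 and 594 CPM (0.30 ± 0.10). All of these had an edgeR adjusted p of 1.

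Exon length went along with the direction of the difference. Among 8417 protein-coding genes at 10 CPM or more, the median log2 fold change went from -0.07 in the shortest quintile through -0.04, -0.02 and 0.01 to 0.07 in the longest. At an unadjusted p under 0.05 the longest quintile held 106 higher and 0 lower genes, and the shortest held 3 higher and 19 lower genes. The median exon length was 10768 bases over the 148 higher genes and 3524 bases over the 56 lower genes, against 4859 bases over all. The gradient was steepest in CUMS_M 3, whose quintile medians went from -0.15 to 0.14 relative to the NAIVE mean. In CUMS_M 1 they went from -0.06 to 0.05, and in CUMS_M 2 they were 0.02 at both ends. A tilt was also present without the drug: HC CUMS 1 went from -0.07 to 0.05 and HC CUMS 2 from -0.06 to 0.04, while HC CUMS 3 went from -0.02 to -0.04. The NAIVE libraries tilted in opposite directions, from -0.04 to 0.03 in NAIVE 1 and from 0.04 to -0.03 in NAIVE 2. In the PFC the medians of CUMS_M against NAIVE were 0.02 in the shortest and 0.03 in the longest quintile. Gm42418, a noncoding locus known for ribosomal RNA sequence and named here after its values were seen, was at 12035, 8189 and 11777 CPM in CUMS_M and at 5976 and 8804 CPM in NAIVE. The part of RNA quality or library preparation in the length gradient was not tested.

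**Figure D3:**
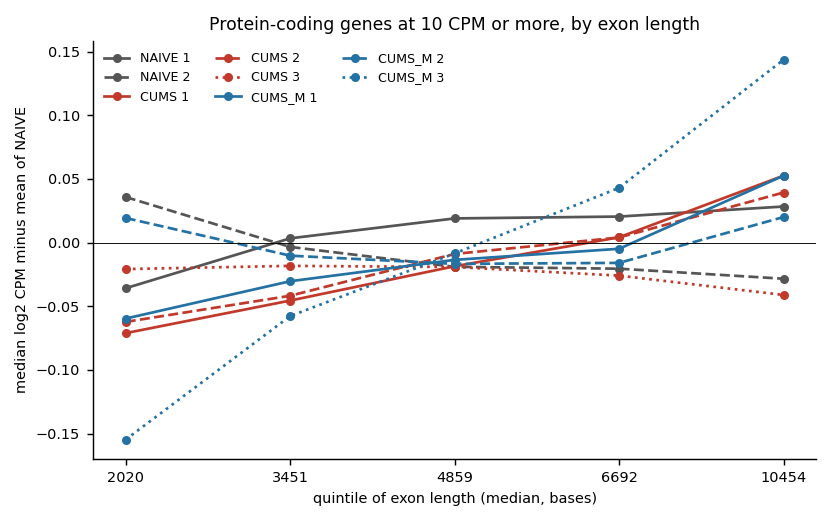
Median log2 CPM minus the mean of the 2 NAIVE libraries (vertical axis) in quintiles of exon length (horizontal axis, labelled by the median length in bases), 1 line per hippocampal library. CUMS_M 3 has the steepest line, from -0.15 to 0.14, and CUMS_M 2 is at 0.02 at both ends.

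The leading genes below the naive level had varied functions, and none passed the adjusted test. Zfp787, a zinc finger protein, was at 41, 40.6 and 40.1 CPM in CUMS_M and at 55.6 and 53.7 CPM in NAIVE, with little spread in either group (log2 fold change -0.43 ± 0.11). It lies on chromosome 7 (6131491 to 6155997, minus strand). The undrugged CUMS libraries were at 42, 46.3 and 43.9 CPM, also below both NAIVE libraries. Per2, a repressor of the circadian clock on chromosome 1 (91415982 to 91459324, minus strand), was at 9.39, 8.21 and 12.5 CPM against 18.2 and 17.4 CPM (-0.83 ± 0.28), and at 11.8, 12.6 and 14.3 CPM in CUMS. Of the 14 tested clock genes, 5 were above 0 with a median of -0.02, and Nr1d1, a repressor in the opposite arm of the clock, was at 0.34 ± 0.23.

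Rgs5, a signalling regulator that marks pericytes, had the largest difference of the leading lower genes. It was at 12.7, 6.54 and 3.95 CPM in CUMS_M and at 20.9 and 25.4 CPM in NAIVE (-1.57 ± 0.51), and at 23.2, 22.6 and 30.9 CPM in CUMS. The others were smaller. Coq8b, a kinase-like protein of ubiquinone synthesis, was at -0.46 ± 0.15, Pex16, a peroxisome assembly factor, at -0.57 ± 0.20, and Whamm, an actin nucleation factor of the Golgi, at -0.47 ± 0.17 on the log2 scale. Gtpbp3, a mitochondrial tRNA modification enzyme, was at -0.40 ± 0.14, Tbcc, a tubulin folding cofactor, at -0.48 ± 0.17, and Znhit2 at -0.42 ± 0.16. Tmem189 was at -0.31 ± 0.11, with 21.3% of its exon bases shared with another gene on its strand. All of these had an edgeR adjusted p of 1.

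Immediate early genes, transcription factors and feedback regulators induced within minutes of a stimulus, lay at or under the naive level in the drug-treated group, but the naive level itself was not well fixed. Btg2, an antiproliferative factor, and Dusp1, the phosphatase that ends MAP kinase signalling, are printed because they hold a full cyclic AMP response element (CRE). Of the 19 members matched to a promoter, only these 2 held it in the 250 bases before the start site. They do not stand for the rest of the list. The 250 bases before the start site are given from RefSeq on GRCm38.p6, on the strand of transcription, with CRE sites (TGACGTCA), the shorter CRE core (TGACG) and E-boxes (CACGTG) in capitals. Both genes are on the minus strand, Dusp1 at chr17:26508473-26508722 and Btg2 at chr1:134079156-134079405.
Dusp1: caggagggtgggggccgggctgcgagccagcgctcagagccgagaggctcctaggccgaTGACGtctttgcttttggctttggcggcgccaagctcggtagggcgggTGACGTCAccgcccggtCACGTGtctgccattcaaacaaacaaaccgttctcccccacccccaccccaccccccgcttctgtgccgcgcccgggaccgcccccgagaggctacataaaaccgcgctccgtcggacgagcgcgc
Btg2: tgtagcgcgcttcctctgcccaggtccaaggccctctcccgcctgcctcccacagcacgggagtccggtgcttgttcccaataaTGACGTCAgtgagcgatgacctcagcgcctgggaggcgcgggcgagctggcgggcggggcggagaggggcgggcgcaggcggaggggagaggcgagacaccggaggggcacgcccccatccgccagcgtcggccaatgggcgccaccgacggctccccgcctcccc
In Dusp1 the full CRE begins 143 bases and the E-box 126 bases before the start, and in Btg2 the full CRE begins 166 bases before it. Of the 22 immediate early genes, 19 were matched to a promoter by symbol, and 12 of these (63.2%) held TGACG on either strand, against 19.8% of the 27025 genes of the promoter table. The full CRE, which contains the core, was in 2 (10.5%, against 1.77%), and the E-box in 4 (21.1%, against 6.86%). Such a match describes the letters only.

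Dusp1 was at 321, 320 and 246 CPM in CUMS_M, at 562 and 269 CPM in NAIVE, and at 949, 703 and 562 CPM in CUMS. Btg2 was at 412, 451 and 356 CPM in CUMS_M, at 649 and 399 CPM in NAIVE, and at 928, 835 and 510 CPM in CUMS. In both, the CUMS_M libraries lay close to NAIVE 2, while NAIVE 1 lay in or near the CUMS range. Egr1, a zinc finger factor of the same class, had the same order, at 1018, 1093 and 736 CPM in CUMS_M against 1857 and 940 CPM in NAIVE (-0.56 ± 0.38), and so had Jund, an AP-1 subunit (-0.48 ± 0.31, with 52.6% of its exon bases opposite another gene). Ier2 had the lowest fold change of the list (-0.67 ± 0.34) and Klf6 the highest (0.13 ± 0.21).

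Of the 22 members 21 were below 0 against NAIVE, with a median of -0.41, but 0 had an unadjusted p under 0.05, and for 1 member every CUMS_M library was below both NAIVE libraries (7.81% of all genes). The median was 0.14 without NAIVE 1 and -0.76 without NAIVE 2. The mean level of the list was 6.88, 7 and 6.78 log2 CPM in CUMS_M, a narrow range, and 7.61 and 6.82 in NAIVE. In CUMS it was 8.27, 7.91 and 7.34. The median log2 fold change was 0.59 for HC CUMS against NAIVE and -1.09 for HC CUMS_M against HC CUMS, comparisons that share libraries with the one described here.

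Genes that respond to glucocorticoids, the stress hormones of the adrenal cortex, lay near the naive level. Of the 19 members 6 were above 0, with a median of -0.12 and 0 at an unadjusted p under 0.05. Per1, a circadian repressor under direct control of the glucocorticoid receptor, was at 88.6, 96.2 and 96.6 CPM in CUMS_M and at 127 and 91.4 CPM in NAIVE (-0.22 ± 0.14, 95% interval -0.52 to 0.08), and without NAIVE 1 the difference was 0.031. In CUMS it was at 187, 187 and 193 CPM, and Per1 was the 1 gene called in HC CUMS_M against HC CUMS (0.00736% of genes; -1.01 ± 0.13, edgeR adjusted p = 0.00424). Fkbp5, a chaperone that restrains the glucocorticoid receptor, was at 110, 113 and 122 CPM in CUMS_M and at 133 and 124 CPM in NAIVE (-0.16 ± 0.15), against 132, 137 and 201 CPM in CUMS. Sgk1, a kinase induced by glucocorticoids, was at 0.19 ± 0.11. The metallothionein Mt2 had the highest fold change (0.96 ± 0.63), at 9.92, 12.7 and 3.73 CPM against 3.52 and 5.53 CPM, and 73.5% of its exon bases lie opposite another gene.

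Inflammatory cytokine and NF-kB feedback genes were at or slightly under the naive level. Of 19 tested members 2 were above 0 with a median of -0.08, and Il10, Il12b and Nos2 had too few counts to be tested. Il1b, the cytokine IL-1 beta, was at 11.3, 15.4 and 24 CPM in CUMS_M and at 22 and 29.8 CPM in NAIVE, so the groups overlapped through CUMS_M 3 (-0.62 ± 0.27, 95% interval -1.18 to -0.05, edgeR adjusted p = 1). In CUMS it was at 42.1, 31.1 and 31.1 CPM. Ptgs2, the inducible cyclooxygenase, was at 0.866, 1.14 and 2.41 CPM against 2.58 and 3.40 CPM (-1.02 ± 0.54), the lowest fold change of the list. Tnf was at 18.3, 17.6 and 12.4 CPM against 26.7 and 11.9 CPM (-0.26 ± 0.37). Without NAIVE 1 its log2 fold change was 0.43. Nfkbia, the NF-kB inhibitor, was at -0.25 ± 0.23. Among 15 tested chemokine genes 2 were above 0 with a median of -0.19, the highest being Cxcl14 (0.94 ± 0.38) and the lowest Cxcl9 (-0.94 ± 1.01). Ccl5 was at -0.50 ± 0.36.

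**Figure D4:**
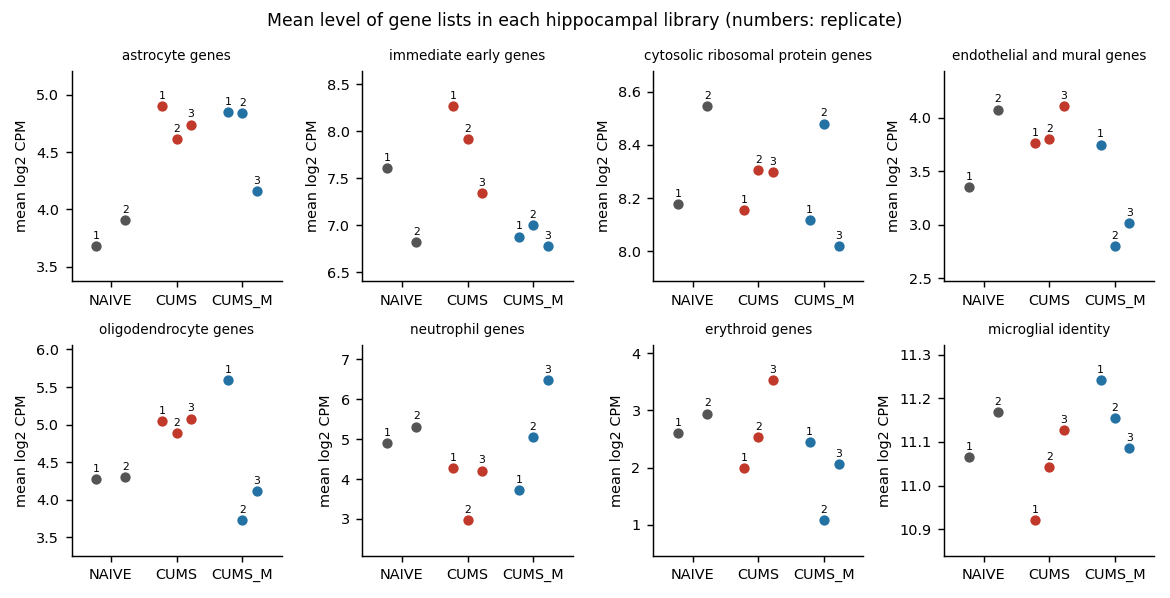
Mean log2 CPM of 8 gene lists (vertical axes, which do not start at 0) in each hippocampal library, numbered by replicate, for NAIVE (grey), CUMS (red) and CUMS_M (blue). The 3 CUMS_M libraries lie above both NAIVE libraries for the astrocyte genes, and for the immediate early genes they lie beside NAIVE 2 and below NAIVE 1 and all CUMS libraries.

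Microglial identity genes held the naive level within narrow bounds. All 20 of 20 members had a 95% interval inside a 2-fold change and 19 inside a 1.5-fold change, and the median was 0.04. The shares were 68.2% and 49.3% over all genes, but 97.9% and 92.5% over genes at 100 CPM or more. Such bounds were thus usual for abundant genes. Cx3cr1, the fractalkine receptor, was at 9976, 9139 and 9122 CPM in CUMS_M and at 8628 and 8952 CPM in NAIVE (0.10 ± 0.08, interval -0.08 to 0.27). Tmem119 was at 5167, 4794 and 4830 CPM against 4676 and 4770 CPM (0.06 ± 0.10), and P2ry12, the receptor that guides processes toward nucleotides, at 3276, 3182 and 2845 CPM against 2601 and 3290 CPM (0.07 ± 0.13). Sall1, a transcription factor of microglial identity, had the lowest fold change (-0.15 ± 0.09) and the receptor Tgfbr1 the highest (0.16 ± 0.13). Itgam itself, the gene of the sorted antigen, was at 549, 521 and 525 CPM against 479 and 471 CPM (0.16 ± 0.09), with 68.7% of its exon bases shared with another gene on its strand.

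Lists of microglial states had medians near 0, but not all were tightly bounded. All 26 of 26 lysosome genes were bounded within 1.5-fold, with a median of -0.01. Disease-associated microglia genes had a median of -0.04, with 10 of 20 bounded within 1.5-fold, and Spp1, osteopontin, was highest at 3.73, 7.22 and 7.46 CPM against 3.60 and 3.23 CPM (0.84 ± 0.64). Apoe, the apolipoprotein of that state, was at 1848, 3237 and 1900 CPM against 2407 and 2149 CPM. Its interval of -0.97 to 1.03 does not exclude a change of up to about 2-fold in either direction. Complement and phagocytosis genes had a median of 0.02. Type I interferon genes, of which 5 of 22 were bounded within 1.5-fold, had a median of 0.07, which was -0.18 without NAIVE 1 and 0.28 without NAIVE 2. Antigen presentation genes (MHC class I and II) had a median of -0.08 with 11 of 17 bounded within 1.5-fold, and Psmb9, a subunit of the immunoproteasome, was at 40.1, 42.5 and 40.2 CPM against 49 and 48.1 CPM (-0.25 ± 0.12).

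The remaining state lists had medians between -0.15 and 0.07. These were the TGF-beta pathway (-0.01), calcium entry and purinergic signalling (0.02), metalloproteinases and inhibitors (0.05), apoptosis genes (0.03), NADPH oxidase and antioxidant genes (-0.01), heat shock genes (0.04), integrated stress response genes (-0.15) and cell cycle genes (0.07). In the last, the replication helicase Mcm6 was at 22.5, 28 and 24 CPM in CUMS_M against 19.7 and 17.9 CPM in NAIVE (0.40 ± 0.18), and the proliferation marker Mki67 at 10.4, 14.5 and 20.9 CPM against 10.4 and 8.42 CPM (0.70 ± 0.52). No member of these lists passed the adjusted test, with 0 called by edgeR.

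Ribosomal protein genes showed a small shift in 1 direction that hung on the NAIVE libraries. Of the 56 cytosolic ribosomal protein genes 0 were above 0, with a median of -0.15, and 1 had an unadjusted p under 0.05. The mean level was 8.12, 8.48 and 8.02 log2 CPM in CUMS_M and 8.18 and 8.55 in NAIVE, so the groups overlapped. The median was 0.05 without NAIVE 2 and -0.35 without NAIVE 1. The shortest quintile by total exon length of the 8417 coding genes at 10 CPM or more had a median of -0.07. The part of exon length in the ribosomal shift was not tested. Genes of the mitochondrial ribosome, which descends from the ribosome of bacteria, were above 0 in 10 of 51 cases, with a median of -0.09 (-0.15 to -0.06 over the alternatives that left out 1 library). Mrpl17 was at 30.4, 31.7 and 27.7 CPM against 39.2 and 35.9 CPM (-0.33 ± 0.15) and Mrps16 at 11.1, 13.7 and 9.43 CPM against 14.6 and 15.5 CPM (-0.40 ± 0.22). For 10 of the 51 every CUMS_M library was below both NAIVE libraries, against 7.81% of all genes. The part of exon length was not tested for this list either. In HC CUMS against the same NAIVE libraries the medians were -0.12 for the cytosolic and -0.09 for the mitochondrial ribosome, and in HC CUMS_M against HC CUMS they were -0.02 and -0.0038.

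Lists of energy and lipid metabolism did not share 1 direction. Of the nuclear genes of oxidative phosphorylation 9 of 46 were above 0 with a median of -0.08, which was 0.03 without NAIVE 2 and stood beside -0.11 for HC CUMS against NAIVE. Ndufb3, a complex I subunit, was at 19.6, 19.8 and 21.3 CPM against 24.7 and 27.5 CPM (-0.36 ± 0.18). The 8 tested genes encoded by the mitochondrial genome had 7 members above 0 and a median of 0.19, and it was -0.24 without NAIVE 1 and 0.63 without NAIVE 2. Glycolysis genes had 14 of 19 members above 0 (median 0.04) and cholesterol synthesis genes 15 of 21 (0.10), and for the latter Srebf2, the transcription factor that drives the pathway, was at 99.7, 94.2 and 104 CPM against 86.1 and 89.1 CPM (0.18 ± 0.13).

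**Figure D5:**
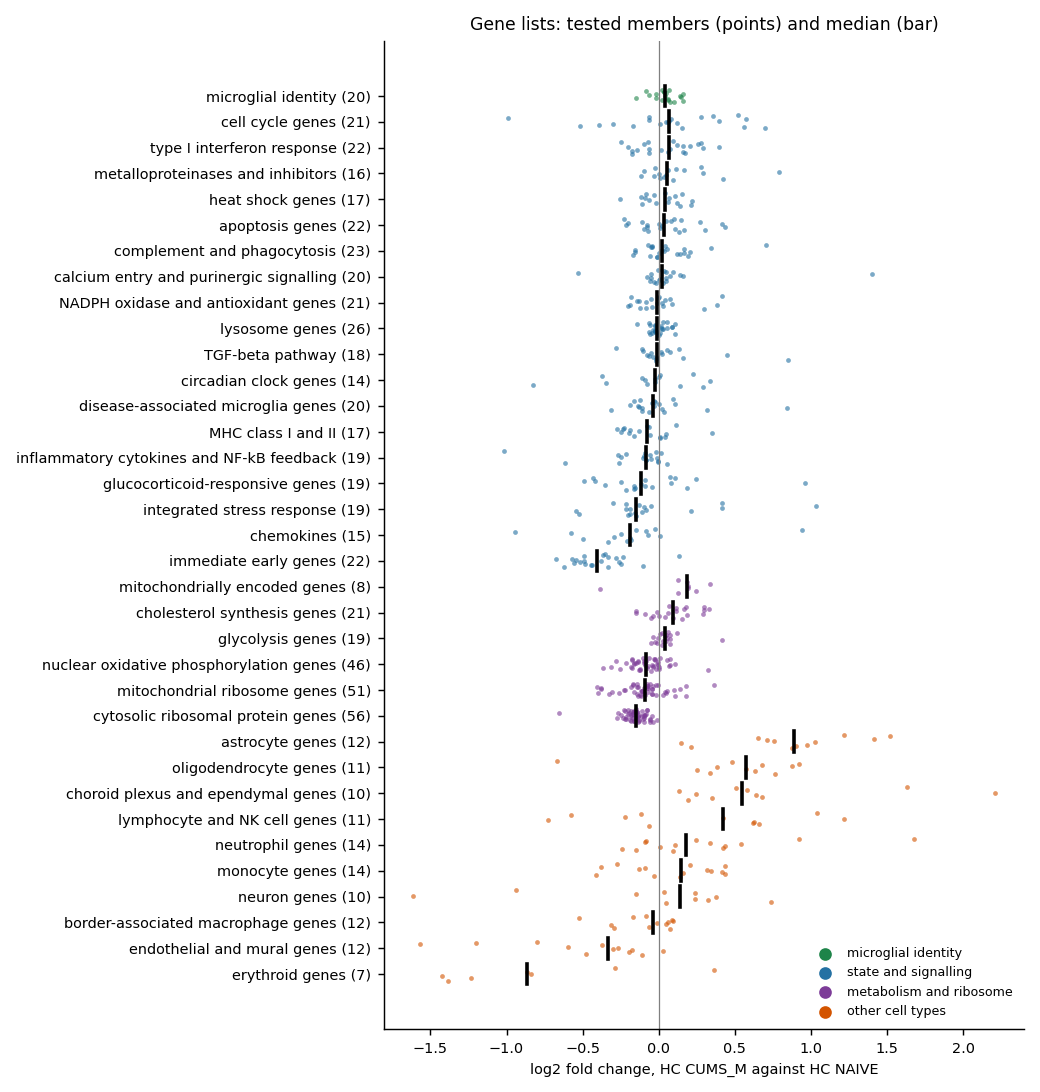
Log2 fold change of HC CUMS_M against HC NAIVE for the tested members (points, with their number in parentheses) of 35 gene lists, with the median as a black bar. Microglial identity and lysosome genes sit tightly around 0, astrocyte genes lie wholly above 0 with a median of 0.89, and cytosolic ribosomal protein genes lie wholly below 0 with a median of -0.15.

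Besides the astrocyte genes, other cells that the sort could hold were checked by their markers, and several of these lists depended on single libraries. The oligodendrocyte list had a median of 0.57, but this was -0.35 without CUMS_M 1, and its summed level was 404 to 1155 CPM in CUMS_M against 481 to 483 CPM in NAIVE. Olig1, a lineage factor of these cells, was at 32.9 CPM in CUMS_M 1, at 6.99 and 9.50 CPM in CUMS_M 2 and 3, and at 8.52 and 8.93 CPM in NAIVE. Neutrophil genes had a median of 0.18, but -0.78 without CUMS_M 3, where the mean level was 6.48 log2 CPM against 3.73 and 5.05 in the other CUMS_M libraries and 4.90 and 5.31 in NAIVE. Ltf, lactoferrin of neutrophil granules, was at 39.3, 102 and 309 CPM against 73.2 and 133 CPM. For endothelial and mural genes 1 of 12 members was above 0 and the median was -0.34, which was 0.07 without NAIVE 2. Their mean level was 3.75, 2.80 and 3.02 log2 CPM against 3.35 and 4.08, and Vtn, vitronectin of pericytes, was at 19.3, 9.65 and 6.65 CPM against 17.7 and 37.3 CPM. Rgs5, given above, is a member of that list, and the part of pericyte RNA in its difference was not tested.

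Erythroid genes were lower, and this was shared by the haemoglobins. Hbb-bs, an adult beta globin, was at 37.7, 15.4 and 30.6 CPM in CUMS_M and at 68.9 and 81.2 CPM in NAIVE (-1.42 ± 0.65), and Hba-a1 at 13.5, 4.71 and 15.9 CPM against 29.7 and 29.8 CPM (-1.38 ± 0.63). Of the 7 tested members 6 were below 0, 4 had every CUMS_M library below both NAIVE libraries (7.81% of all genes), and the median was -0.87 (-1.34 to -0.67 over the alternatives). The globin genes are near-identical copies, so how reads were split among them is uncertain. Neuron genes summed to 22.6 to 30.6 CPM against 27.6 to 29 CPM (median 0.14, with the neurofilament gene Nefl lowest at -1.62 ± 0.71). Lists of monocytes (0.15), border-associated macrophages (-0.04), lymphocytes and NK cells (0.42) and choroid plexus and ependyma (0.54) had wide intervals in most members, and for example the 95% interval of Ttr, transthyretin of the choroid plexus, ran from -3.46 to 3.84. Over the alternatives their medians ran from -0.29 to 0.64 for monocytes, -0.44 to 0.14 for border-associated macrophages, -0.07 to 0.65 for lymphocytes and NK cells, and 0.15 to 0.79 for choroid plexus and ependyma.

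The same contrast in the prefrontal cortex was tested against the hippocampal one. PFC CUMS_M 3 stood apart in choroid plexus and ependymal genes, which summed to 784 CPM in it. The sums were 14.4 and 9.58 CPM in PFC CUMS_M 1 and 2, and 41.0 and 17.5 CPM in PFC NAIVE. The part of this library in the regional values was not tested. In the PFC, edgeR called 13 genes in CUMS_M against NAIVE (0.0956%), of which 11 rose (0.0809%) and 2 fell (0.0147%). That count ran from 0 to 533 when 1 library was left out. The difference of the contrast between regions was called for 0 of 13592 genes (0%) by edgeR, with a smallest adjusted p of 0.170 and 1249 at an unadjusted p under 0.05 (9.19%), and for 31 by DESeq2. Without PFC NAIVE 2, edgeR called 142.

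Bmpr2 was among the genes whose regional difference had the smallest p. In the PFC it was at 144, 141 and 159 CPM in CUMS_M and at 189 and 179 CPM in NAIVE, the opposite order to the hippocampus, and the difference of the log2 fold changes was 0.76 ± 0.14 (hippocampus minus PFC, edgeR adjusted p = 0.170). Itgav had the same form, at 184, 183 and 201 CPM against 244 and 241 CPM in the PFC (difference 0.70 ± 0.15, edgeR adjusted p = 0.286). Per1 was at 184, 267 and 211 CPM against 139 and 168 CPM in the PFC, above both NAIVE libraries there, while in the hippocampus it was at the naive level (difference -0.74 ± 0.20, edgeR adjusted p = 0.355). The astrocyte list was above 0 in all 12 members in the PFC too, with a median of 1.29. Aldh1l1 rose there, from 0.658 and 1.37 CPM to 5.16, 6.59 and 5.52 CPM (2.48 ± 0.39, edgeR adjusted p = 0.0189), and its difference between regions was -1.58 ± 0.49 (edgeR adjusted p = 0.381). Cytosolic ribosomal protein genes had 52 of 56 members above 0 in the PFC with a median of 0.12, and immediate early genes 20 of 22 with a median of 0.39. The hippocampal and cortical values of these lists thus lay on opposite sides of 0, a difference of list medians that was given no test. Both hippocampal medians changed side without 1 NAIVE library, as given above. In the PFC the groups overlapped in the mean level of both lists. Immediate early genes were at 8.04, 8.48 and 7.77 log2 CPM in PFC CUMS_M against 7.47 and 7.88 in PFC NAIVE. Cytosolic ribosomal protein genes were at 8.67, 8.57 and 8.29 against 8.51 and 8.24.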

How the data were processed

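RNA of CD11b+ cells sorted by flow cytometry was sequenced from stranded, polyA-enriched libraries as read pairs. Per the submitters' processing notes, reads were handled with Trimmomatic 0.36, STAR 2.6.1b, Picard 2.17.1, featureCounts 1.5.3 and DESeq2 1.24.0 on mm10 (GRCm38). The annotation release, the strand setting of counting and the treatment of duplicates are not given in the sources used here. The authors deposited raw counts per gene for the 15 libraries of the minocycline experiment. The enrichment experiment was not analysed here.

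Of 53412 identifiers, 53326 were matched to a symbol. Genes with 10 or more counts in 2 or more of the 5 libraries were kept. The 15 libraries were fitted together, with 1 mean for each of 6 groups, TMM scaling and the edgeR quasi-likelihood test (edgeR 4.0.16, R 4.3.3), so that all groups share the estimate of spread (9 residual degrees of freedom). Genes were called at a Benjamini-Hochberg adjusted p under 0.05 over all tested genes. Fold changes are log2 with the SE of the fit, and intervals cover 95%. CPM is scaled to the effective library size, and list levels are means of log2 CPM with a prior count of 2. DESeq2 1.42.0 was an alternative. The others were DESeq2 size factors, other filters, fits of fewer libraries, the replicate number as a block, and leaving out each library. Figures used matplotlib 3.10.9.

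The genes named are the 10 of smallest unadjusted p in each direction with separate groups, a regular symbol and a mean of 5 CPM or more, up to 4 members of smallest p of each of 35 gene lists (696 genes), and 10 microglial, inflammatory and stress genes named in any case. List members at the extremes of their list are also named. Members and lists were chosen with earlier results of these data known. Some genes that this rule names are not reported here.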

Additional observations from a re-analysis of the deposited data

How the results depend on the processing

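The count of genes called in HC CUMS_M against HC NAIVE was 8 without the filter on low counts, 1 with DESeq2 (Adcyap1r1), 1 in a fit of only the 5 libraries (Slc6a11), and 0 to 1 when 1 library was left out (1 without NAIVE 2, Gm24187). It stayed at 0 with the size factors of DESeq2, the 2 other filters and a fit of the 8 hippocampal libraries. With the replicate number as a block it was 0, with 237 genes at an unadjusted p under 0.05. The labels do not say that the numbers pair the samples. HC CUMS_M and HC NAIVE libraries of equal number did not deviate together (r = -0.0032 and -0.0052). The deviations of the 2 NAIVE libraries from their mean mirror each other, so these values are not separate checks. Libraries of equal number were not compared between regions. A fit that leaves 1 NAIVE library assumes that it varies like the other groups. For the other comparisons the counts with DESeq2 were 2 (HC CUMS against NAIVE), 38 (HC CUMS_M against CUMS), 140 (PFC) and 31 (between regions). With the replicate block they were 3 for HC CUMS_M against CUMS and 0 for the PFC. Leaving out 1 library gave 0 to 1, 0 to 2, 0 to 533 and 0 to 142 genes. Over the leave-outs the log2 fold change ran from -0.87 to 0.037 for Jund, -0.67 to 0.057 for Zfp36, -0.97 to 0.0066 for Egr1, -0.93 to 0.13 for Dusp1, -0.67 to 0.018 for Btg2, -0.43 to 0.031 for Per1 and -0.73 to 0.43 for Tnf, each with the value above 0 without NAIVE 1. It ran from -0.093 to 0.25 for P2ry12 and -0.10 to 0.47 for Tgfbr1 (below 0 without NAIVE 1), -0.29 to 0.18 for Apoe (-0.29 without CUMS_M 2, -0.046 without NAIVE 2), -0.077 to 1.28 for Olig1 (below 0 without CUMS_M 1) and -0.55 to 1.04 for Ltf (below 0 without CUMS_M 3). With the replicate block it was 0.012 for Tnf and -0.21 for Ltf. The cause of these changes was not tested. Adcyap1r1, Slc4a4, Gja1 and Nf1 passed the threshold without the filter on low counts (edgeR adjusted p = 0.0145, 3.63e-05, 0.0145 and 0.0400). Over all alternatives, 942 values of named genes kept direction and side of the threshold, 15 changed sign and 5 newly passed, and 437 list medians moved by less than the spread between replicates while 18 moved by more. With 2 NAIVE libraries, a gene under 10 CPM could seldom be bounded within 2-fold.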
